A study of Mus musculus with 14 samples.

Results

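The genes described here encode inhibitors of the proteases that cut the extracellular matrix of the lung: Timp1, Timp2, Timp3, Timp4, Reck, Serpine2, Serping1, Slpi and Cst3. They were chosen by name, as inhibitors, and read as the probe set carrying each gene's Entrez number. All 9 of the 9 genes were measured, among 21212 probe sets on the arrays. Whole lungs of C57BL/6J mice at postnatal day 6 were taken from intercrosses of heterozygotes, collected in wild-type and knockout pairs that the labels do not match to arrays, and total RNA was hybridised to 14 Affymetrix mouse Gene ST arrays. In the Atxn1l set, 4 knockouts (Atxn1L -/-) were compared with 4 wild types, and in the Atxn1 set 3 knockouts (Atxn1 -/-) were compared with 3 wild types. Mice from intercrosses of heterozygotes are taken to carry the deletion in the germline, and so in every cell type of the lung. For the Atxn1 knockouts expression did not check this. Each array value averages over all cell types of the lung. The labels give neither sex nor litter and name no treatment. Ataxin-1 and ataxin-1-like are partners of the transcriptional repressor Capicua, and the study used both knockouts to look at lung transcripts during the days when alveoli form.

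Matrix proteases and their inhibitors are made side by side in the newborn lung. The tissue inhibitors of metalloproteinases (TIMPs) bind the catalytic zinc site of matrix metalloproteinases and of some ADAM proteases and block it. Serpins trap serine proteases by being cleaved and locking the enzyme in a dead complex, and cystatins occupy the active cleft of cysteine cathepsins. While airspaces divide into alveoli, elastin and collagen are laid down and remodelled, so the balance of proteases and inhibitors matters for the final structure of the lung.

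None of the 9 inhibitors passed the test in either knockout, and their mean differences ran from -0.08 to 0.34 on the log2 scale. In the Atxn1l knockouts 0 of 9 passed the test, limma with a Benjamini-Hochberg adjusted p under 0.05 over all probe sets, where 9 of 21212 probe sets (0.0424%) passed. In the Atxn1 knockouts 0 of 9 passed, as did 0 of 21212 probe sets (0.0%) by limma, of which 159 had an unadjusted p under 0.05 on the higher side and 99 on the lower side. In the difference between both effects 0 of 9 passed by limma, against 2 of 21212 probe sets (0.00943%). Slpi was the 1 inhibitor with an unadjusted limma p under 0.05 in the Atxn1l set, on the higher side, where 4.54% of all probe sets lay. In the Atxn1 set 0 of 9 lay there on either side, against 0.75% of probe sets higher and 0.467% lower, and in the difference 0 of 9, against 3.24%.

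The deleted Atxn1l gene checks the labels of its set. The Atxn1l level fell by 2.58 on the log2 scale (SE 0.09, limma Benjamini-Hochberg adjusted p = 1.182e-06) in the Atxn1l knockouts. Atxn1 itself read 11.02 ± 0.02 (SD, n = 3) in the Atxn1 knockouts and 11.01 ± 0.11 (SD, n = 3) in their wild types, so the labels of the Atxn1 knockouts were not checked by expression. Lung markers were high on all arrays: Sftpc, the surfactant protein of alveolar type 2 cells, had a mean log2 level of 13.92 in the Atxn1l set and 14.31 in the Atxn1 set. The sets were normalized apart, with array medians of 8.44 to 8.53 for Atxn1l and 9.21 to 9.24 for Atxn1, and levels are compared only within a set. One array of each set stood apart from the rest.

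Those arrays were Atxn1l knockout replicate 1 and wild-type replicate 3 of the Atxn1 set. The mean log2 level of 11 neutrophil marker genes, all 11 measured and led in abundance by Lcn2 and Ngp, was 10.46 on that knockout array against 8.31 to 9.15 on the other 7 arrays of its set. It was 10.89 on that wild-type array against 9.07 to 9.49 on the other 5. The mean of 8 inflammation genes, led by Il1rn and Saa3, was 8.33 on the knockout array against 7.0 to 7.34 on the others, and 8.52 on the wild-type array against 8.03 to 8.30. The mean of 11 macrophage markers was also the highest of its set on each. It was 9.71 against 8.66 to 9.24, and 9.82 against 9.37 to 9.78. Xist, the transcript of the inactive X chromosome in females, was at 7.04 on that knockout array and above 13 on the other 3 Atxn1l knockouts. It was at 13.04 on that wild-type array and below 7 on the other 2 wild types. In the other groups Xist read 6.32, 6.59, 13.25 and 13.29 on the Atxn1l-set wild types and 6.83, 12.97 and 13.07 on the Atxn1 knockouts. Values without the arrays that stand apart are given beside the main differences that they move. Those arrays were picked after seeing the data and have the highest neutrophil means of their sets. Leaving them out therefore moves a gene that is high in neutrophils by the choice of array.

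Timp1 and Slpi were the highest of their set on both of these arrays, and their upstream sequences are shown because of that shared pattern. The lines give the 250 bases before the start of transcription as RefSeq has it on GRCm38.p6, read 5′ to 3′ on the gene's own strand. Timp1 lies on the plus strand of the X chromosome at chrX:20869916-20870165, and Slpi on the minus strand of chromosome 2 at chr2:164356508-164356757. Capitals mark AGGAAGT, the PEA3 motif bound by Ets factors such as the Capicua target Etv4.
Timp1: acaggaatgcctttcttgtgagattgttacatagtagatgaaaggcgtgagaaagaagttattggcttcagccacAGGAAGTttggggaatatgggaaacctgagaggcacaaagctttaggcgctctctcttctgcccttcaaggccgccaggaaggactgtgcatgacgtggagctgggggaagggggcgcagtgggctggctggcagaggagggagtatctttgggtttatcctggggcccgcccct
Slpi: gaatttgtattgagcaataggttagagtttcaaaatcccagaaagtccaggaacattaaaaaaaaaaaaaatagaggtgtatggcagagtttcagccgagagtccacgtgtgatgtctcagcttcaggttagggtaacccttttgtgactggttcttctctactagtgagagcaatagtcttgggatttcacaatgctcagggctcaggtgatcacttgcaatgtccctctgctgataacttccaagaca
The search covered both strands of a 300-base window, from 250 bases before to 50 bases after the start, in the 8 inhibitors that the RefSeq table holds. The PEA3 letters AGGAAGT occurred in Timp1, at position -175 from the start of transcription, and on the opposite strand in Timp4, and in 9.35% of 32851 such windows. The AP-1 variant TGAGTAA occurred in Timp1 from base 27 after the start, and in 2.68% of windows. The Capicua octamers (TGAATGAA, TGAATGGA, TCAATGAA or TCAATGGA; 3.84% of windows), AP-1 TGANTCA (7.81%), STAT TTCNNNGAA (8.3%) and NF-kB (0.411%) were not among the letters of the 8 windows. The Slpi window held none of the motifs searched and had a GC content of 43.3%, against 55% in Timp1 and a median of 52.7% over all windows. A match of letters is a description of the window only.

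**Figure D1:**
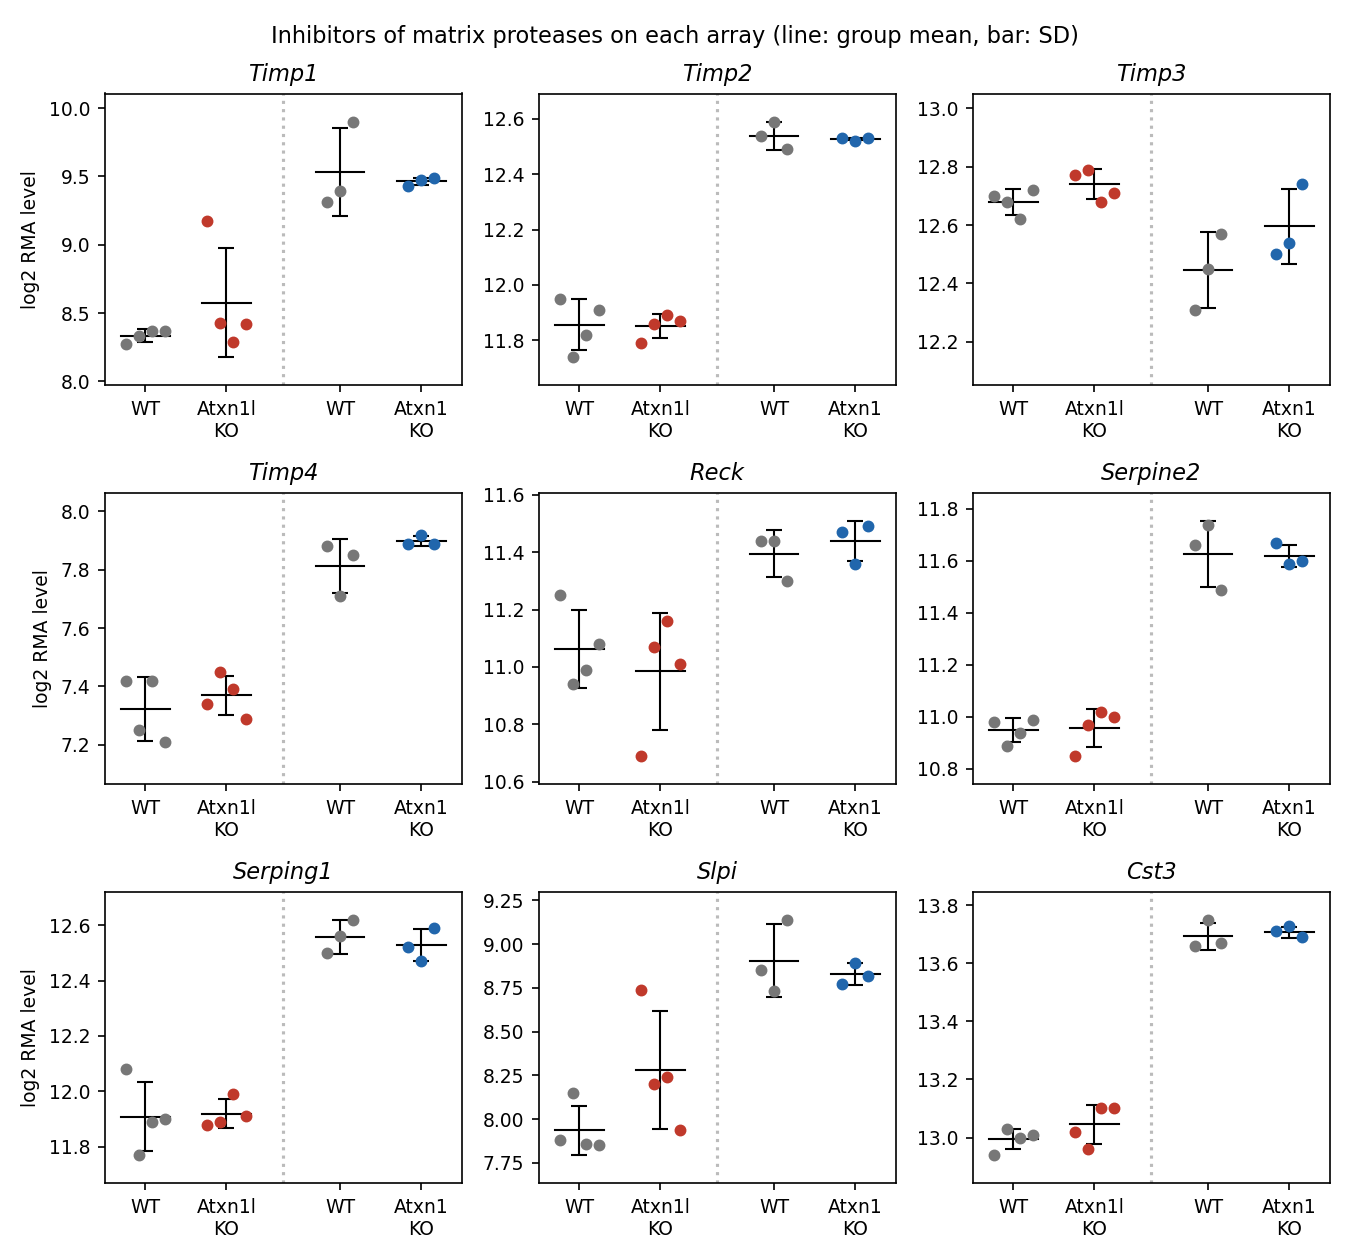
Log2 RMA level of each inhibitor on every array (points), with the group mean (line) and SD (bar). The dotted line divides the Atxn1l set on the left from the Atxn1 set on the right, which were normalized apart and are not compared. Atxn1l knockout replicate 1, at 9.17 for Timp1, and Atxn1-set wild-type replicate 3, at 9.90, lie above all other arrays of their set.

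Timp1 (Entrez 21857), a secreted TIMP whose transcript is known to be induced by inflammation, varied more between arrays than the other TIMPs. Its log2 levels were 9.17, 8.43, 8.29 and 8.42 on the Atxn1l knockout arrays (replicates 1 to 4) and 8.27, 8.33, 8.37 and 8.37 on their wild types. The knockout replicate 1 was high and the other 3 knockouts lay around the wild types, so the groups overlapped. The means were 8.58 ± 0.40 (SD, n = 4) and 8.34 ± 0.05 (SD, n = 4). The mean difference was 0.24 (SE 0.16, 95% interval -0.12 to 0.60), at a limma Benjamini-Hochberg adjusted p of 0.7432. It was 0.04 (SE 0.06) without knockout replicate 1, and 0.32 (SE 0.15) with the Xist level as a covariate, Timp1 being X-linked. That array was the only Atxn1l knockout with low Xist, so the covariate is tied to it.

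On the arrays of the Atxn1 set, Timp1 read 9.43, 9.47 and 9.49 in the knockouts and 9.31, 9.39 and 9.90 in the wild types. Wild-type replicate 3 was high and the 3 knockouts sat between it and the other wild types. The mean difference was -0.07 (SE 0.15, 95% interval -0.42 to 0.28), limma adjusted p = 0.9999 by Benjamini-Hochberg. Without that wild type it was 0.11 (SE 0.06), with the knockouts then above both remaining wild types. With the Xist covariate, on all arrays of the set, it was -0.17 (SE 0.12). The difference between the effects of both knockouts was 0.31 (SE 0.25, 95% interval -0.22 to 0.84), and without both arrays, a choice made after seeing the data, it was -0.07 (SE 0.08).

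Timp2 (Entrez 21858), the TIMP that also serves with Mmp14 to activate pro-Mmp2, had near-equal group means in both sets. On the log2 scale it read 11.79, 11.86, 11.89 and 11.87 in the Atxn1l knockouts and 11.95, 11.74, 11.82 and 11.91 in their wild types. The knockouts lay inside the range of the wild types. On the Atxn1 arrays the values were 12.53, 12.52 and 12.53 in the knockouts and 12.54, 12.59 and 12.49 in the wild types. Here too the knockouts lay inside the wild-type range. The 95% intervals of the differences were narrow, from -0.13 to 0.12 in the Atxn1l set and from -0.13 to 0.11 in the other.

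Timp3 (Entrez 21859), the TIMP held in the matrix that also blocks Adam17 and aggrecanases, had its largest mean difference in the Atxn1 set. Log2 levels were 12.77, 12.79, 12.68 and 12.71 in the Atxn1l knockouts and 12.70, 12.68, 12.62 and 12.72 in their wild types. Knockout replicates 1 and 2 lay above all wild types and replicates 3 and 4 lay among them. The mean difference was 0.06 (SE 0.05, 95% interval -0.04 to 0.17; limma Benjamini-Hochberg adjusted p = 0.7819).

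Timp3 in the Atxn1 set read 12.50, 12.54 and 12.74 in the knockouts and 12.31, 12.45 and 12.57 in the wild types. Knockout replicate 3 was the highest array and wild-type replicate 1 the lowest, with the other values interleaved. The mean difference of 0.15 (SE 0.09, 95% interval -0.07 to 0.37) had an unadjusted limma p of 0.1465 and an adjusted p of 0.9999 by Benjamini-Hochberg. It ranged from 0.08 without knockout replicate 3 to 0.21 without wild-type replicate 3.

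Timp4 (Entrez 110595), a TIMP known best from heart and blood vessels, was the 1 inhibitor whose groups did not overlap in any comparison. Its log2 levels were 7.34, 7.45, 7.39 and 7.29 in the Atxn1l knockouts and 7.42, 7.25, 7.42 and 7.21 in their wild types, fully interleaved. On the Atxn1 arrays they were 7.89, 7.92 and 7.89 in the knockouts and 7.88, 7.71 and 7.85 in the wild types. All 3 knockouts lay above all 3 wild types, with wild-type replicate 1, at 7.88, just below the lowest knockout. Of all probe sets in the Atxn1 set, 2.85% had knockouts above wild types without overlap and 1.9% had them below. The mean difference was 0.09 (SE 0.06, 95% interval -0.05 to 0.23; limma Benjamini-Hochberg adjusted p = 0.9999), and 0.04 without wild-type replicate 2. The mean of 4 cardiac muscle markers was lowest of the set on that wild type, at 9.04. It was 10.29 and 10.33 on the other wild types, above the 9.35 to 10.1 of the knockouts. The part of heart tissue in the Timp4 values was not tested. In the Atxn1l set 0 of 9 inhibitors were without overlap, where 2.76% of probe sets had knockouts higher and 2.56% lower.

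**Figure D2:**
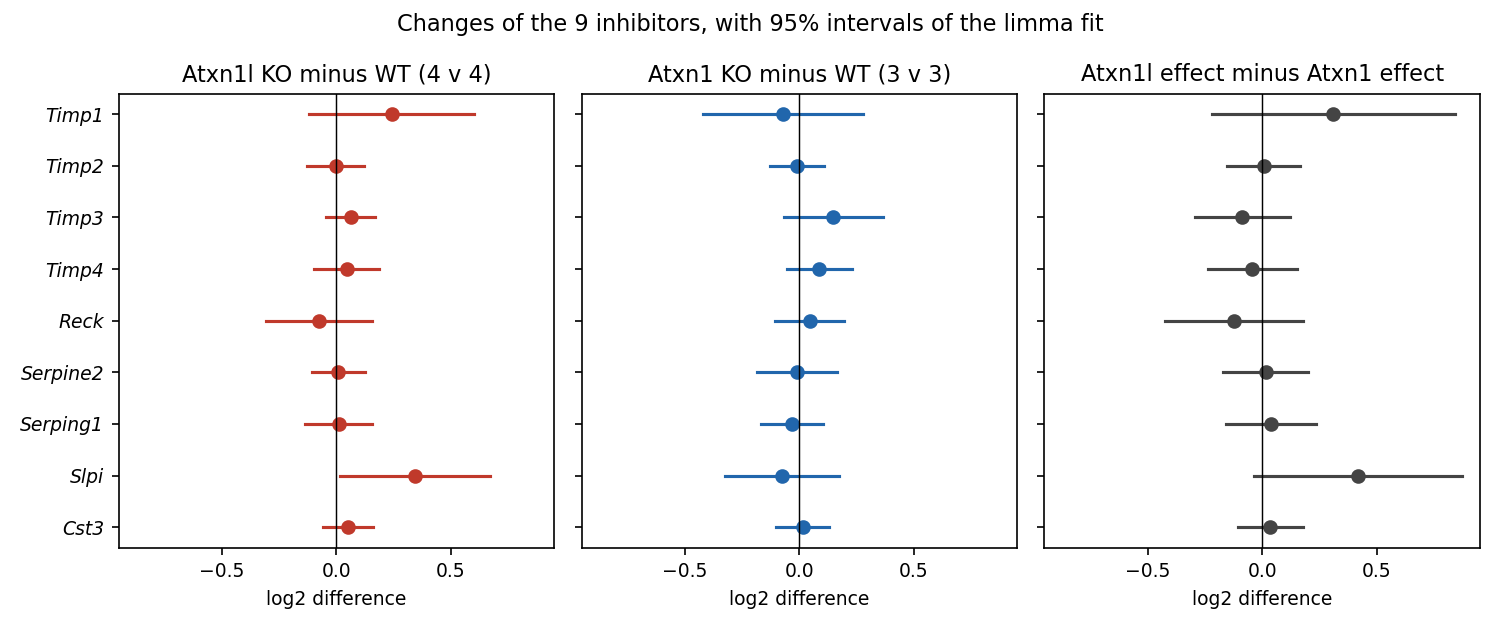
Difference in log2 level, knockout minus wild type, for each inhibitor (point) with its 95% interval from the limma fit (line), in the Atxn1l set, the Atxn1 set and as the difference of both effects. The interval of Slpi in the Atxn1l set, 0.01 to 0.67, is the only one that leaves out 0, and it is not adjusted for the number of probe sets.

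Reck (Entrez 53614) is a membrane-anchored inhibitor that restrains Mmp2, Mmp9 and Mmp14 at the cell surface. Its log2 levels were 10.69, 11.07, 11.16 and 11.01 in the Atxn1l knockouts and 11.25, 10.94, 10.99 and 11.08 in their wild types. Knockout replicate 1 was the lowest of the 8 arrays and the other knockouts lay among the wild types. The mean difference was -0.08 (SE 0.10, 95% interval -0.31 to 0.15; limma Benjamini-Hochberg adjusted p = 0.8995), and 0.02 without that array.

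Reck in the Atxn1 set read 11.47, 11.36 and 11.49 in the knockouts and 11.44, 11.44 and 11.30 in the wild types. Wild-type replicate 3 was the lowest array of this set. The mean difference was 0.05 (SE 0.06, 95% interval -0.11 to 0.20), and -0.00 (SE 0.06) without that array.

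Serpine2 (Entrez 20720), also called protease nexin-1, is a serpin that inhibits thrombin, urokinase and plasmin near the cell surface. Log2 levels of Serpine2 were 10.85, 10.97, 11.02 and 11.00 in the Atxn1l knockouts and 10.98, 10.89, 10.94 and 10.99 in their wild types. Knockout replicate 1 was again the lowest array, and the other 3 knockouts lay level with the upper wild types or just above them. The Atxn1 set gave 11.67, 11.59 and 11.60 in the knockouts and 11.66, 11.74 and 11.49 in the wild types. Wild-type replicate 3 was the lowest array there. The mean differences were 0.01 (SE 0.05) and -0.01 (SE 0.07). They were 0.04 without that knockout and -0.08 without that wild type.

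Serping1 (Entrez 12258), the C1 inhibitor of complement and of plasma kallikrein, varied little between groups. It read 11.88, 11.89, 11.99 and 11.91 in the Atxn1l knockouts and 12.08, 11.77, 11.89 and 11.90 in their wild types. Wild-type replicates 1 and 2 were the highest and the lowest array, with all knockouts between them. The Atxn1 arrays read 12.52, 12.47 and 12.59 in the knockouts and 12.50, 12.56 and 12.62 in the wild types, again interleaved. The mean differences were 0.01 (95% interval -0.14 to 0.16) and -0.03 (95% interval -0.16 to 0.11).

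Slpi (Entrez 20568), a secreted inhibitor of neutrophil elastase and cathepsin G made by airway epithelium and by myeloid cells, had the largest mean difference of the 9 inhibitors in the Atxn1l set. Its log2 levels were 8.74, 8.20, 8.24 and 7.94 in the Atxn1l knockouts and 7.88, 8.15, 7.86 and 7.85 in their wild types. Knockout replicates 1 to 3 lay above all wild types, while replicate 4 lay below wild-type replicate 2. The mean was 8.28 ± 0.34 (SD, n = 4) in the knockouts and 7.94 ± 0.14 (SD, n = 4) in the wild types. The difference of 0.34 (SE 0.15, 95% interval 0.01 to 0.67), a ratio of 1.27, had an unadjusted limma p of 0.04232 and did not pass after adjustment (Benjamini-Hochberg adjusted p = 0.5696).

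Without knockout replicate 1 the Slpi difference was 0.19 (SE 0.10), and with the Xist level as a covariate it was 0.44 (SE 0.12; limma Benjamini-Hochberg adjusted p = 0.2514). The covariate is tied to that array, the only Atxn1l knockout with low Xist. Beside the Slpi difference, the neutrophil mean was 8.85 to 10.46 in the Atxn1l knockouts and 8.31 to 8.99 in their wild types. The mean of 11 macrophage markers was 9.11 to 9.71 against 8.66 to 8.77, and that of 11 interferon response genes 8.64 to 9.11 against 8.07 to 8.77. For the 4 airway secretory genes it was 11.39 to 12.04 against 11.42 to 12.17. Their part in the Slpi difference was not tested. Slpi in the Atxn1 set read 8.77, 8.89 and 8.82 in the knockouts and 8.85, 8.73 and 9.14 in the wild types. Wild-type replicate 3 was the highest array, and the 3 knockouts lay around the other wild types. The mean difference there was -0.08 (SE 0.11, 95% interval -0.33 to 0.17), and 0.04 without that wild type. With the Xist covariate it was -0.15 (SE 0.08). The difference between both effects was 0.42 (SE 0.21, 95% interval -0.03 to 0.87; limma Benjamini-Hochberg adjusted p = 0.9996), and 0.15 (SE 0.14) without both arrays.

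Cst3 (Entrez 13010), cystatin C, is a secreted inhibitor of cysteine cathepsins made by most cells. Log2 levels of Cst3 were 13.02, 12.96, 13.10 and 13.10 in the Atxn1l knockouts and 12.94, 13.03, 13.00 and 13.01 in their wild types. Knockout replicates 3 and 4 were the highest arrays and the others overlapped. The Atxn1 arrays had 13.71, 13.73 and 13.69 in the knockouts and 13.66, 13.75 and 13.67 in the wild types, all overlapping. The mean differences were 0.05 (95% interval -0.06 to 0.16) and 0.01 (95% interval -0.10 to 0.13).

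The 2 arrays with high neutrophil markers were thus at opposite ends for different inhibitors. Timp1 and Slpi were the highest of their set on both, 2 of 9 inhibitors where 5.52% of all probe sets were. Reck and Serpine2 were the lowest of their set on both, 2 of 9 where 3.84% of probe sets were. For Timp1 the excess over the mean of the other arrays was 0.81 on the knockout array and 0.48 on the wild-type array, and for Slpi it was 0.73 and 0.33. The part that neutrophils, macrophages, inflammation, airway secretory cells or sex play in these values was not tested. In these whole-lung samples fewer cells of a type and less RNA per cell cannot be told apart.

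**Figure D3:**
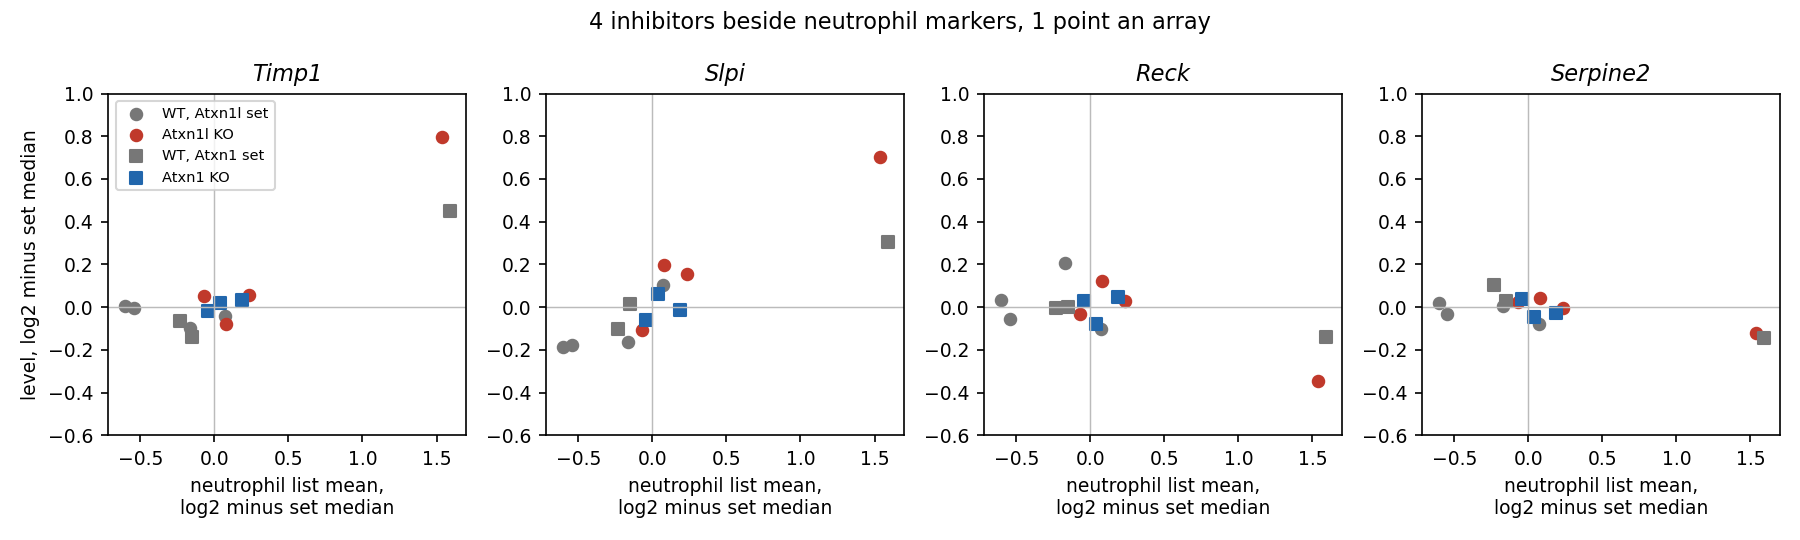
Level of 4 inhibitors against the mean of 11 neutrophil marker genes, each as the log2 difference from the median of its own set, with 1 point for each array. Atxn1l knockout replicate 1 and Atxn1-set wild-type replicate 3 lie far to the right, with Timp1 and Slpi high and Reck and Serpine2 low. The other 12 arrays lie nearer the centre.

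**Figure D4:**
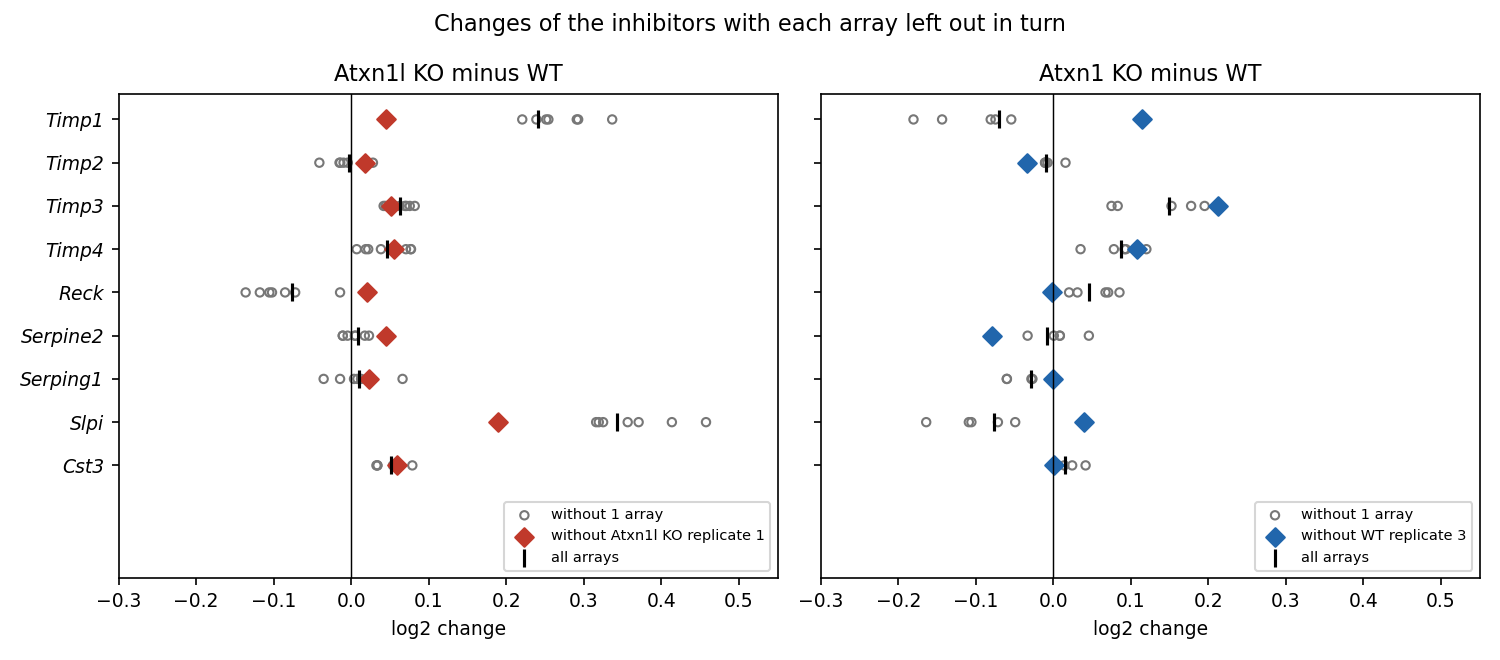
Log2 difference, knockout minus wild type, of each inhibitor over all arrays (bar) and with each array left out in turn (circles), with diamonds for the array that stands apart in each set. Without it, Timp1 goes from 0.24 to 0.04 in the Atxn1l set and from -0.07 to 0.11 in the Atxn1 set.

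Within groups, the deviations of the inhibitors from their group means were compared over the 14 arrays as a description. Reck and Timp2 deviated together (Pearson r 0.783, and 0.787 without the arrays that stand apart), as did Reck and Serping1 (0.587 and 0.915 without them). Slpi and Timp1 had r 0.809 over all arrays and -0.382 without those arrays, so their likeness rests on them. Over all probe sets with a gene symbol, Reck was most like Agt, angiotensinogen (r 0.979, and 0.949 over the other 12 arrays). Timp3 was most like the imprinted gene Peg3 (0.955 and 0.969) and Timp2 most like Dpysl2 (0.968 and 0.965). Timp1 was most like Ppp1r15b (0.967 and 0.855), Slpi like the kinase gene Mapk13 (0.963 and 0.886), and Serpine2 like Fibin (0.966 and 0.868). Timp4, Cst3 and Serping1 were most like Psg16 (0.925 and 0.938), Rbm48 (0.904 and 0.905) and Cnot1 (0.925 and 0.923). Arrays share their normalization within a set, and each best match was picked from all probe sets.

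In the annotation, Timp1 lies inside Syn1, Timp3 inside Syn3 and Timp4 inside Syn2, a synapsin gene in each case. These synapsins, looked at after the inhibitors' values were known, differed by 0.02, -0.05 and 0.07 in the Atxn1l set and by -0.06, -0.03 and 0.02 in the Atxn1 set, in the order Syn1, Syn3, Syn2. No synapsin passed the test in either set.

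The proteases that the inhibitors act on were set beside them. Of 36 metalloproteinases of the MMP, ADAM and ADAMTS families 0 passed the test in either knockout. In the Atxn1l set their median difference was 0.05, with 23 of 36 above 0, beside a median of 0.00 and 51.3% above 0 over all probe sets. The 9 inhibitors had a median of 0.05 there, with 7 of 9 above 0. Without knockout replicate 1 it was 0.04 with 9 of 9 above 0, beside a median of 0.00 over all probe sets. The share of all probe sets above 0 was not counted without that array. Timp2, Reck and Serping1 were each at 0.02 then (SE 0.06, 0.08 and 0.07), within their SE of 0. For the Atxn1 knockouts the median was -0.03 for the metalloproteinases and -0.01 for the inhibitors, with 13 of 36 and 4 of 9 above 0, beside 47.3% of all probe sets. Without wild-type replicate 3 these medians were -0.01 and 0.00, with 14 of 36 and 6 of 9 above 0. The median over all probe sets was then -0.01, and the 6 included Cst3 and Serping1, both at 0.00.

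Among the metalloproteinases, unadjusted limma p under 0.05 in the Atxn1l set was reached by 5 on the higher side (background 4.54%) and 1 on the lower side (background 3.95%). Mmp12, the macrophage metalloelastase, differed by 0.27 (SE 0.08) in the Atxn1l set and by 0.30 (SE 0.08) in the Atxn1 set. Its knockouts lay above its wild types without overlap in both sets, and it passed in neither (limma Benjamini-Hochberg adjusted p = 0.4154 and 0.9999). Of the 36, 3 lay so in the Atxn1l set and 2 in the Atxn1 set, where 2.76% and 2.85% of all probe sets did. With knockouts below wild types there were 0 and 2, where 2.56% and 1.9% of all probe sets lay. Adam15, a membrane disintegrin protease, differed by 0.18 (SE 0.05; limma Benjamini-Hochberg adjusted p = 0.366) in the Atxn1l set and by 0.00 in the Atxn1 set. Mmp27 differed by -0.10 (SE 0.05) in the Atxn1 set, with knockouts below wild types without overlap. Mmp8 and Mmp9, singled out after their values were seen, had the largest differences of the list in the Atxn1l set. These were 1.34 (SE 0.41) and 0.74 (SE 0.32), at limma Benjamini-Hochberg adjusted p of 0.4198 and 0.5691. Without knockout replicate 1 they were 0.87 and 0.37. In the Atxn1 set Mmp8 and Mmp9 differed by -0.37 (SE 0.79) and -0.43 (SE 0.47). Without wild-type replicate 3 they differed by 0.67 and 0.18, each at a limma Benjamini-Hochberg adjusted p of 0.9999. That wild type had the highest neutrophil mean of its set and was picked after seeing the data.

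Of 17 serine proteases 0 passed in either knockout, with medians of 0.06 in the Atxn1l set and -0.03 in the Atxn1 set. Plau, the urokinase that Serpine2 inhibits, differed by 0.17 (SE 0.05; limma Benjamini-Hochberg adjusted p = 0.366) in the Atxn1l set. Plat, the tissue plasminogen activator, differed by 0.24 (SE 0.09; adjusted p = 0.4985) there. For the Atxn1 knockouts C1ra, a complement protease that Serping1 inhibits, differed by -0.15 (SE 0.06) and Klkb1, plasma prekallikrein, by 0.13 (SE 0.07), both at a limma Benjamini-Hochberg adjusted p of 0.9999.

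Of 11 cysteine cathepsins, the targets of Cst3, 0 passed in either knockout. Their median difference in the Atxn1l set was 0.15, with 9 of 11 above 0, beside 51.3% of all probe sets. It was 0.09 with 8 of 11 above 0 without knockout replicate 1. An unadjusted limma p under 0.05 was reached by 3 on the higher side (background 4.54%) and 1 on the lower side (background 3.95%). Ctsk, cathepsin K, a collagen-degrading enzyme of osteoclasts and macrophages, differed by 0.44 (SE 0.15; limma Benjamini-Hochberg adjusted p = 0.4712), and by 0.26 without that array. Lgmn, the lysosomal protease legumain, differed by 0.23 (SE 0.08; adjusted p = 0.4719). The 2 below 0 were Ctso at -0.15 (SE 0.06) and Ctsh at -0.09 (SE 0.07), at -0.17 and -0.15 without knockout replicate 1. Ctsf differed by 0.13 (SE 0.07) and Ctss by 0.15 (SE 0.13) in the Atxn1 set, and by 0.08 and 0.28 without wild-type replicate 3. The mean of 11 macrophage markers, led by Csf1r and Cd68, was 9.11 to 9.71 in the Atxn1l knockouts and 8.66 to 8.77 in their wild types, and its part in these differences was not tested.

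Of 32 other protease inhibitors 0 passed in either knockout, with medians of 0.04 in the Atxn1l set and -0.04 in the other. Without the array that stands apart in each set, the medians were 0.02 and 0.02. In the Atxn1l set 7 of 32 reached an unadjusted limma p under 0.05 on the higher side (background 4.54%) and 1 on the lower (background 3.95%). Serpina3g, a serpin that inhibits cysteine cathepsins, differed by 0.76 (SE 0.22; limma Benjamini-Hochberg adjusted p = 0.395), and by 0.50 without knockout replicate 1. In the Atxn1 set Serpina3g differed by -0.51 (SE 0.48), and by 0.12 without wild-type replicate 3. Serpinb9, the granzyme B inhibitor, differed by -0.20 (SE 0.07; limma Benjamini-Hochberg adjusted p = 0.5141) in the Atxn1l set. Among the Atxn1 knockouts the proteoglycan Spock1 differed by -0.14 (SE 0.10; limma Benjamini-Hochberg adjusted p = 0.9999).

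The stefins Stfa1 and Stfa2, singled out after their values were seen, are cystatin relatives abundant in neutrophils. They differed by 1.07 (SE 0.39) and 1.09 (SE 0.43) in the Atxn1l set, at limma Benjamini-Hochberg adjusted p of 0.5141 and 0.5486, and by 0.71 and 0.63 without knockout replicate 1. In the Atxn1 set they differed by -0.18 (SE 0.57) and -0.15 (SE 0.91). Without wild-type replicate 3 they differed by 0.55 and 1.01, each at a limma Benjamini-Hochberg adjusted p of 0.9999. The arrays left out have the highest neutrophil means of their sets, so these shifts follow from that choice and are no separate result. Close relatives in the stefin and Serpina3 families share sequence, and whether the probes tell them apart was not tested.

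**Figure D5:**
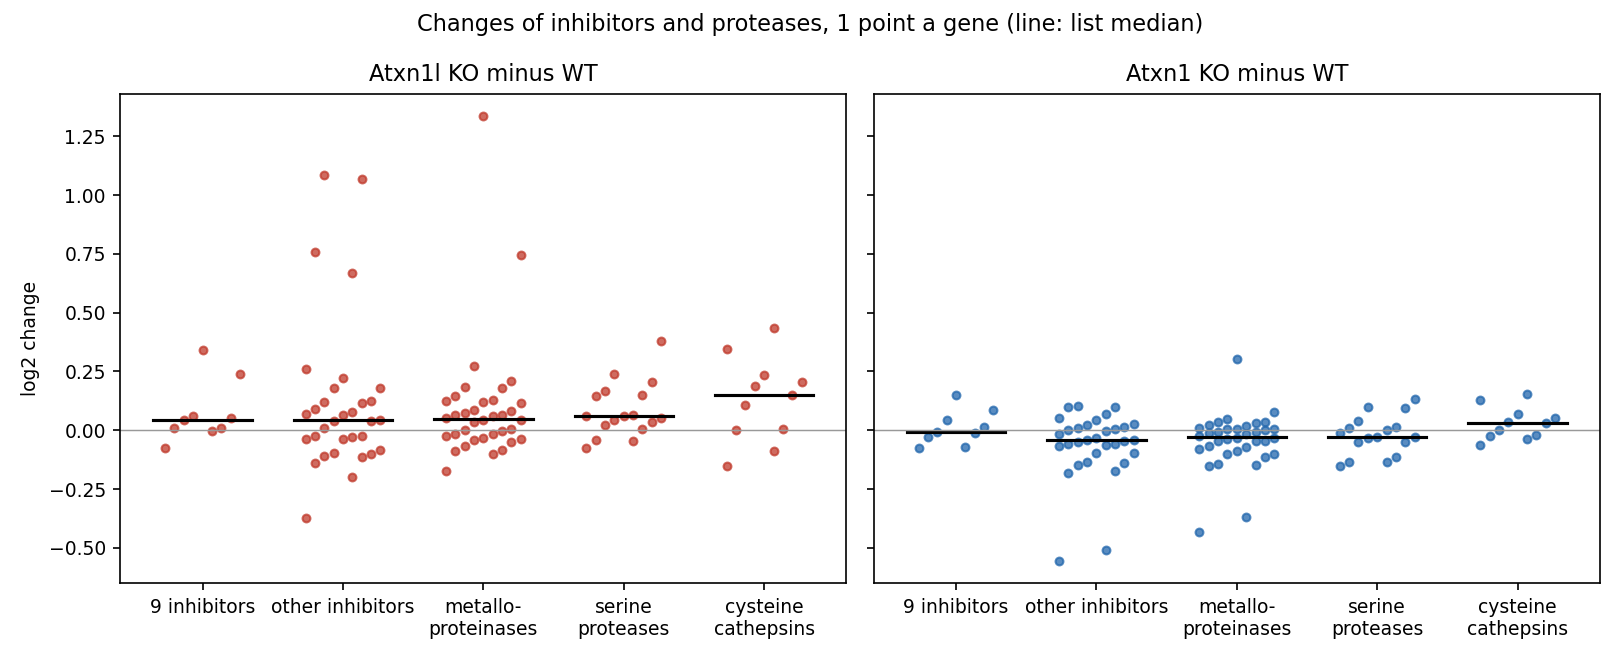
Log2 difference, knockout minus wild type, for each gene (point) of the 9 inhibitors, 32 other protease inhibitors, 36 metalloproteinases, 17 serine proteases and 11 cysteine cathepsins, with the list median (line). The list medians lie between -0.04 and 0.15 in both sets, and no gene shown passed the test.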

How the data were processed

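Transcript levels were measured in whole lungs of 14 mice on 14 arrays. The deposited values are log2 levels that the authors made with RMA, separately for the 8 arrays of the Atxn1l set and the 6 of the Atxn1 set, per the labels' protocols. RMA and limma are named in the submitters' processing notes. Of 21212 probe sets, 18786 were named by the platform's gene table and 1916, Serpine2 among them, through RefSeq by Entrez number. Knockout minus wild type was fitted across all probe sets with limma 3.58.1 in R 4.3.3 (lmFit, eBayes, no covariate), two-sided, with Benjamini-Hochberg adjustment. The difference between knockouts was a contrast in 1 fit of 4 group means. The fits were tested on simulated data.

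All inhibitors were named, with the genes of smallest p in each list of proteases or other inhibitors, of which 1 is not reported here. The inhibitors and the lists were chosen with earlier results of these data known. The number of arrays limits the precision. The p-values set each difference against the spread between arrays within groups, as estimated by limma from these samples. Alternatives covered normalization, the eBayes prior, array weights, dim probe sets, an Xist covariate, the replicate number and leaving out arrays.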

Additional observations from a re-analysis of the deposited data

Results flagged for a closer look

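In groups of 4 arrays, an array was picked out where its gap to the nearest other array exceeded 0.829 of the group's range (Dixon). Of 18 such groups, 2 held one, where chance gives about 1 in 20. Timp1 on Atxn1l knockout replicate 1 was 9.17, a gap of 0.74 to the next knockout and 0.844 of the range. Slpi on wild-type replicate 2 of the Atxn1l set was 8.15, a gap of 0.27 and 0.908 of the range. That wild type also had the highest neutrophil mean (8.99) and inflammation mean (7.34) of its group.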

How the results depend on the processing

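Over 17 alternatives in the Atxn1l set, 15 in the Atxn1 set and 24 for the difference, 0 of the inhibitors passed. Over all probe sets, the 9 that passed in the Atxn1l set became 2 with the replicate number as a block, 1 without dim probe sets, and 2 to 25 with an array left out. The 0 of the Atxn1 set became 1 with array weights. The 2 of the difference became 1 with the replicate block, 4 with array weights, 1 without dim probe sets, 1 without both arrays that stand apart (chosen after seeing the data), and 1 to 2 with an array left out. Under the replicate block Slpi in the Atxn1l set was 0.34 (SE 0.13, limma adjusted p = 0.4619). Same-numbered knockout and wild-type arrays deviated together with r of 0.037 to 0.376 for Atxn1l and -0.417 to 0.421 for Atxn1, and not every array correlated best with its own number. Mice were collected in pairs, but which arrays form a pair is unknown, so the fit without the block was kept. Array weights, in the Atxn1 set, gave Timp1 -0.39 (limma adjusted p = 0.139), Slpi -0.28 (0.1413), Reck 0.14 (0.1786), Serpine2 0.11 (0.278) and Timp3 0.05 (0.7384). Leaving out wild-type replicate 3, the array that stands apart, gave 0.11, 0.04, -0.00, -0.08 and 0.21 in the same order. For Timp1, Slpi and Serpine2 the weighted values thus had the opposite sign to those without that array. Reck was at 0.14 with weights and at -0.00 without the array, and Timp3 was above 0 in each. The weight given to each array was not looked at, and the cause was not tested. The filter on dim probe sets removed Timp1, Timp4 and Slpi from the Atxn1l set, and Timp4 and Slpi from the Atxn1 set.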
